A study of Mus musculus with 2 samples.

Results

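Interferon response genes were examined in 2 single-cell RNA sequencing libraries of mouse embryonic stem cells. The set was a list of 42 gene symbols covering transcription factors, nucleic acid sensors and antiviral effectors. Of these, 40 were found by symbol in the deposited gene table of 32285 genes, and Mx1 and Mx2 were not analysed here. The cells were of the R1 line of mouse embryonic stem cells and were grown in N2B27, a serum-free medium, for 72 hours. The LB culture received LIF and BMP4 on gelatin. The LBPXRS culture received LIF and BMP4 together with PD0325901 (an inhibitor of MEK), Xav939 (an inhibitor of tankyrase, which lowers WNT signalling), Resorcyclic lactone and SB431542 (an inhibitor of the activin and NODAL receptors), on fibronectin. LIF is the cytokine that sustains mouse stem cell self-renewal, and BMP4 is a growth factor of early embryonic patterning. There was 1 library per condition, so differences between them have no replicate check, and the effects of medium, of substrate and of any difference between the cell stocks cannot be told apart. The title of the series asks how the FGF, TGF and WNT pathways limit the effect of BMP4.

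Interferons are secreted proteins that warn cells of virus infection. Type I interferons bind the receptor made of Ifnar1 and Ifnar2, after which the kinases Jak1 and Tyk2 signal to a complex that holds Stat2 and Irf9, enters the nucleus and binds the interferon-stimulated response element, a repeat of GAAA. Type II interferon binds the receptor made of Ifngr1 and Ifngr2, acts on a palindromic element, and induces Irf1 and the guanylate-binding proteins. Pluripotent stem cells are known for a weak response to interferon and for holding a subset of interferon response genes, among them the Ifitm genes, at a constant level.

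The LB library held 1783 kept cells with a median of 25418 unique molecular identifiers (UMIs, 1 per captured RNA molecule), and the LBPXRS library held 2705 with a median of 19058. Levels below are CPM, a gene's UMIs over all kept cells per 1000000 UMIs, and intervals are exact 95% Poisson or binomial intervals that cover counting error only. Differences are log2 ratios of LBPXRS to LB with 1 CPM added to each level, which understates the change of low genes. The libraries also differed outside the culture media: 4 Y-linked genes summed to 2872 UMIs in LB and 1 in LBPXRS, and the median log2 ratio was -0.59 over genes of chromosome 8 and -0.55 over genes of chromosome 11, against -0.14 over the 12618 genes whose mean CPM reached 1. The libraries shared 10 cell barcodes, 8 of them among kept cells. Naive pluripotency markers were present in both, with 10 of 10 above 1 CPM in each.

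Promoters of the members were read from RefSeq (GRCm38.p6, 250 bases before to 50 bases after each start), where 32 of the 40 genes had an entry. A motif of GAAA, any 2 bases and GAAA, searched on both strands as a core of the interferon-stimulated response element, was found for 17 of these 32 genes, in 43.6% of their 39 promoters and in 3.44% of all 32851 promoters. The motif TTCNNNGAA, a core of the palindromic element, was found for 10 of the 32 genes, in 25.6% of their promoters and in 8.30% of all promoters. The windows below run from -150 to -1 relative to the start, 5′ to 3′ on the gene's strand, and capitals mark matches to the GAAA repeat, or to the palindrome for Irf1, joined into 1 run where matches overlap. The windows were chosen among genes that hold a motif. Oasl2 and Lgals3bp, near 0 in LBPXRS at 2 and 7 UMIs, had an entry but neither motif and are not shown. Isg15, 3 guanylate-binding protein genes and Ifit1 hold the first motif and were at or near 0 in LBPXRS. Irf1 is shown because its window holds the palindrome, and Oas1a and Ifitm2 because they hold the first motif and differed by less than 2-fold between the libraries. In order, the windows lie at chr4:156200819-156200968 on the minus strand, chr3:142620513-142620662, chr3:142559894-142560043 and chr3:142530186-142530335 on the plus strand, chr19:34640739-34640888 and chr11:53769864-53770013 on the plus strand, and chr5:120907526-120907675 and chr7:140955962-140956111 on the minus strand.
Isg15: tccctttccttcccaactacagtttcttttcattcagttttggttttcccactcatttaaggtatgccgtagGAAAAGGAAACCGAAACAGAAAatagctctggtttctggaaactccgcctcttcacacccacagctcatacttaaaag
Gbp2: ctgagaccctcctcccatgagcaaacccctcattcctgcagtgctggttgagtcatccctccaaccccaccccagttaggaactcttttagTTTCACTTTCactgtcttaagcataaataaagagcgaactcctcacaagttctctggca
Gbp3: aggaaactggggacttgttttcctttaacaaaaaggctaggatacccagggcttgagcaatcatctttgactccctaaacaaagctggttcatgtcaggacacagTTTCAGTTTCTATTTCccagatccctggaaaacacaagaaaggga
Gbp7: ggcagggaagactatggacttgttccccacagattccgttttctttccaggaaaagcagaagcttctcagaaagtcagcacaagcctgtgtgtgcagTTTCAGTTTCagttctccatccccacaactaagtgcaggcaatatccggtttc
Ifit1: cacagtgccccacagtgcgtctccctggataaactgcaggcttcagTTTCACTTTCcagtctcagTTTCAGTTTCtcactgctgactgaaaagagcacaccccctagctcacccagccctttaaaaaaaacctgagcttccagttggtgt
Irf1: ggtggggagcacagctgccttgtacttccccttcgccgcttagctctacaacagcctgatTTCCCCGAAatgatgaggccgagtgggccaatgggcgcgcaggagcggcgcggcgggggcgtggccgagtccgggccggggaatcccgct
Oas1a: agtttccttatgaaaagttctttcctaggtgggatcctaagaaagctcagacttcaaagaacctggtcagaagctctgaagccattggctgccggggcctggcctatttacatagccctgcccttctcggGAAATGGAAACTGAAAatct
Ifitm2: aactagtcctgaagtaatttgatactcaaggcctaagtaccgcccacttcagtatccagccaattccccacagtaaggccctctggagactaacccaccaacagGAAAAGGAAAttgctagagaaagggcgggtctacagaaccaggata
The Isg15 window held 3 overlapping matches, with first bases at -78, -72 and -66, and Gbp3 held 2 overlapping ones at -45 and -39. Gbp2 and Gbp7 each held 1 match, at -59 and -53, and Ifit1 held 2 separate ones at -104 and -85. A match is a description of letters, and genes with and without a difference between the libraries held it: the GAAA repeat was present for 8 of the 13 genes with an entry that were at least 2-fold lower in LBPXRS and for 6 of the 12 within 2-fold.

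The interferon response genes fell into a group that was far lower in LBPXRS, led by log2 ratio by Isg15, Gbp2, Rtp4, Ifi27l2a and Zbp1, and a smaller group within 2-fold that held the Ifitm genes, Stat2, Irf9, Oas1a and Oas3. Of the 40 genes, 39 had a UMI in either library, Ifi44 had 0 in both, and 33 reached a mean CPM of 1. Of those 33, 19 were at least 2-fold lower in LBPXRS, where 11.6% of all 12618 genes were, and 16 were at least 4-fold lower, where 2.83% were. Only Sp100 was at least 2-fold higher, where 8.53% of all genes were, and 13 were within 2-fold. The median log2 ratio was -1.96, also with genes at 0 set to a floor of 3 counts, against -0.14 over all genes. Over the 39 genes with a UMI it was -1.44, against -0.03 over 21404 genes. It was nearer 0 over the 13 members with a mean CPM of at least 10, at -0.41 with 5 lower (against -0.16 and 8.74% of all genes at that level), with 5 CPM added, at -0.72, and against LB cells without T, Hand1 or Tfap2a, at -0.80; with 0.1 CPM added it was -2.61. The 7 genes on chromosomes 8 and 11 held 4 of the 19 lower ones, where 22.7% of all genes of these chromosomes were lower, and the 26 on other chromosomes held 15 with a median of -1.87, where 9.75% were.

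**Figure D1:**
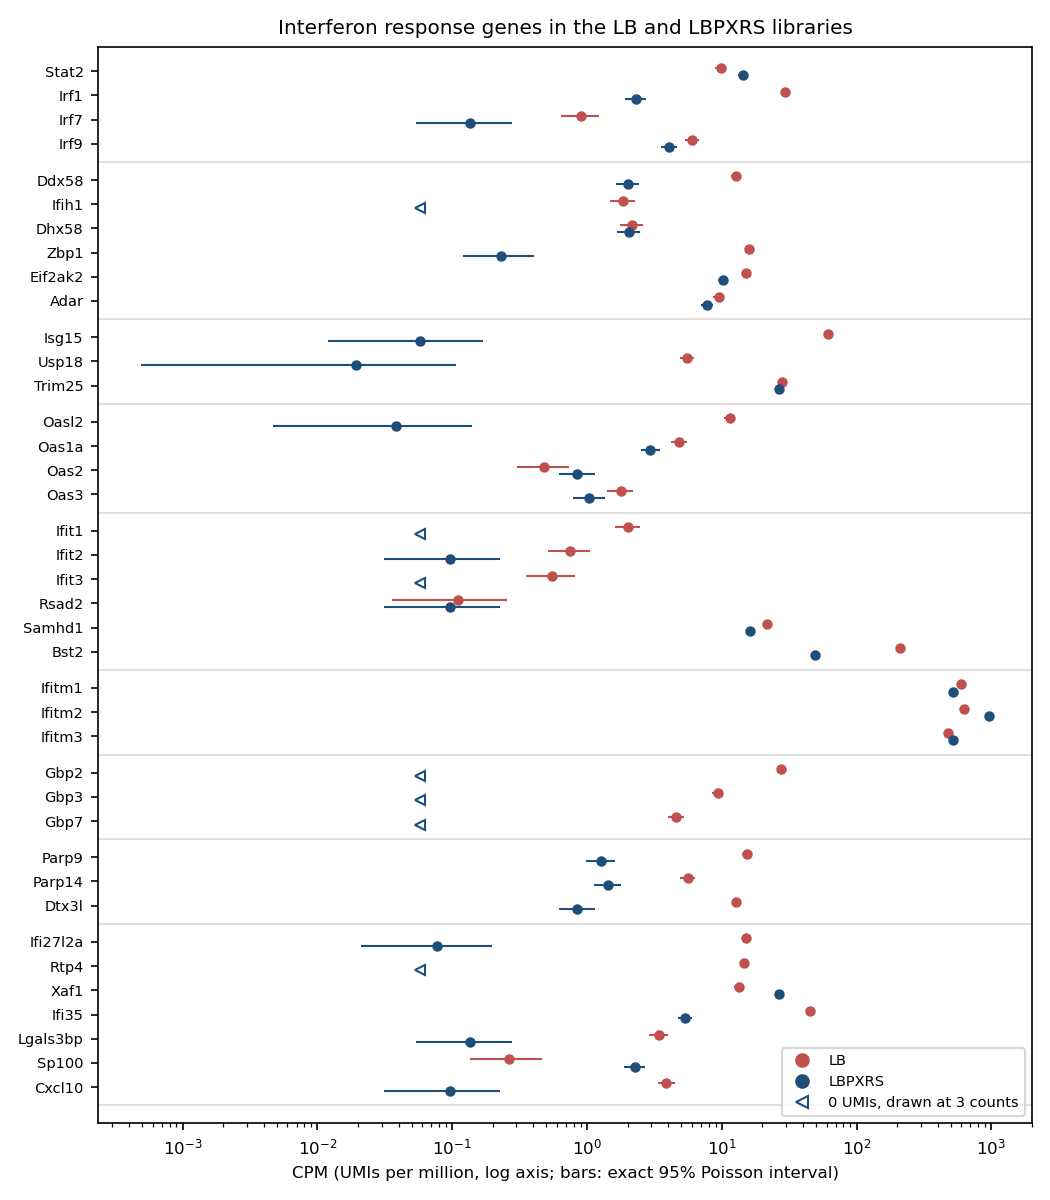
Level of each interferon response gene with a UMI in LB (red) and LBPXRS (blue), in CPM on a log axis with exact 95% Poisson intervals, grouped by role; open triangles mark genes with 0 UMIs, drawn at 3 counts. The Ifitm genes lie together near the top of the scale in both libraries, while Isg15, the guanylate-binding proteins, Rtp4 and Zbp1 lie far apart.

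The ISG15 system attaches a small ubiquitin-like protein to other proteins, and its members went separate ways. Isg15 (ENSMUSG00000035692), the modifier itself, was counted 2813 times in LB, or 61.8 CPM (59.6 to 64.2), and only 3 times in LBPXRS, or 0.0579 CPM (0.0119 to 0.169). Its log2 ratio was -5.89, and LB was higher by a ratio of 1068 with a counting interval of 365 to 5184. Usp18, the protease that removes ISG15 and damps receptor signalling, went from 252 LB UMIs to 1 (ratio 287, counting interval 51.1 to 11386). Trim25, a ubiquitin ligase of the RIG-I pathway, stood at 27.8 and 26.6 CPM, a ratio of 1.05 (0.969 to 1.13).

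The guanylate-binding proteins, large GTPases that attack the vacuoles of intracellular pathogens, had 3 genes in the list, Gbp2, Gbp3 and Gbp7, which were read in LB alone. Gbp2 had 1257 UMIs in LB (27.6 CPM, 26.1 to 29.2), Gbp3 had 424 and Gbp7 had 210, and each had 0 in the 2705 LBPXRS cells. Against the floor of 3 counts in that library, Gbp2 was at least 477-fold lower in LBPXRS, Gbp3 at least 161-fold and Gbp7 at least 79.8-fold. In cells thinned to a common depth of 5000 UMIs, 11.2% of 1733 LB cells carried Gbp2 (9.75 to 12.8). Among 2621 LBPXRS cells the count was 0. Its exact interval allows a share of up to 0.141% of cells with a UMI at this depth and sets no limit on cells that express the gene below it. Reads shared between near-identical copies could be lost or split in families such as Gbp, Oas, Ifit and Ifitm, so single levels within them are uncertain.

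Among the transcription factors, Irf1 was at least 2-fold lower in LBPXRS, and Stat2 and Irf9, parts of the complex that carries the type I signal, were within 2-fold. Irf1 (ENSMUSG00000018899) was at 29.4 CPM (27.8 to 31.0) in LB cells and 2.30 CPM (1.90 to 2.75) in LBPXRS cells, a log2 ratio of -3.20. Irf7, which amplifies interferon production, had 41 and 7 UMIs and did not reach the mean CPM of 1. Stat2 was slightly higher in LBPXRS, at 14.3 CPM (13.2 to 15.3) against 9.80 CPM (8.92 to 10.8), a log2 ratio of 0.50. Irf9 had 6.02 and 4.05 CPM, a log2 ratio of -0.48.

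The nucleic acid sensors were also divided. Zbp1, a sensor of Z-form nucleic acids that triggers necroptosis, gave 726 UMIs from LB and 12 from LBPXRS, a log2 ratio of -3.78. Ddx58, which encodes the viral RNA sensor RIG-I, had levels of 12.8 and 2.01 CPM, a log2 ratio of -2.20. Ifih1, which encodes the related sensor MDA5, had 84 UMIs, all from LB, which puts LBPXRS at least 31.9-fold lower by the floor. Their relative Dhx58, which encodes LGP2, had 2.15 and 2.05 CPM, intervals that overlap. Genes of enzymes that act on viral RNA, the kinase gene Eif2ak2 (log2 ratio -0.52) and the editing enzyme gene Adar (-0.26), were within 2-fold.

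The OAS genes encode enzymes that make oligoadenylates to activate RNase L. Oasl2, whose product also carries ubiquitin-like domains, went from 520 LB UMIs to 2 (ratio 296, counting interval 81.6 to 2453). Oas1a had 4.81 and 2.95 CPM and Oas3 had 1.78 and 1.04 CPM, with log2 ratios of -0.56 and -0.45. Oas2, at 22 and 44 UMIs, did not reach the mean CPM of 1. Of the 3 that reached a mean CPM of 1, Oasl2 alone differed at least 2-fold.

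The classical IFIT effectors, which bind foreign RNA and are among the most strongly induced genes in somatic cells, were low even in LB. Ifit1 gave 91 UMIs (2.00 CPM) from LB and 0 from LBPXRS, which was at least 34.6-fold lower. Ifit2 had 34 and 5 UMIs, Ifit3 had 25 and 0, and Rsad2, which encodes viperin, had 5 in each library. Samhd1, a phosphohydrolase that depletes nucleotides, had 21.7 and 16.1 CPM, a log2 ratio of -0.41. Bst2 (ENSMUSG00000046718), which encodes tetherin and holds budding virus at the membrane, was the most abundant of the genes at least 2-fold lower: its 9578 LB UMIs made 211 CPM (206 to 215) and its 2546 LBPXRS UMIs made 49.1 CPM (47.2 to 51.1), a log2 ratio of -2.08. It was found in 58.3% of thinned LB cells (55.98 to 60.7), whereas LBPXRS gave 20.6% (19.1 to 22.2).

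The Ifitm genes encode small membrane proteins that block virus fusion, and they supplied most of the UMIs of the whole list. Ifitm1 had 598 and 522 CPM (log2 ratio -0.19), Ifitm2 had 631 and 962 CPM (0.61), and Ifitm3 had 474 and 517 CPM (0.12). All 3 were within 2-fold and were found in 76.0% to 91.5% of thinned LB cells and 81.6% to 97.4% of LBPXRS cells. They made up 73.2% of the list's UMIs in LB and 91.8% in LBPXRS. The summed level of all 40 genes was therefore close between the libraries. LB reached 2328 CPM (2314 to 2342) and LBPXRS 2179 CPM (2167 to 2192), and the sign of this small difference turned under another scaling of the totals (log2 ratio -0.09, or 0.059 with TMM factors). Without the Ifitm genes LB summed to 624 CPM (617 to 631) and LBPXRS to 178 CPM (174 to 182), 3.50-fold higher in LB (3.42 to 3.59).

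Parp9 and Dtx3l, whose products form an ADP-ribosylating ubiquitin ligase, and Parp14, a related transferase, were all lower. Parp9 had 699 and 66 UMIs (log2 ratio -2.85), Dtx3l had 585 and 44 (-2.91), and Parp14 had 255 and 74 (-1.44). Parp9 and Dtx3l overlap on opposite strands at their starts, and whether the counting used strand is not given in the sources used here.

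Among the other induced genes, Rtp4, a receptor-transporting protein gene, was read 667 times in LB and 0 times in LBPXRS, where it was at least 253-fold lower. Ifi27l2a, a small membrane protein gene, had 690 and 4 UMIs, a log2 ratio of -3.91. Ifi35, an adaptor that pairs with Nmi, had levels of 44.8 CPM (42.9 to 46.8) and 5.38 CPM (4.77 to 6.05), a log2 ratio of -2.84. The chemokine gene Cxcl10 had 177 and 5 UMIs, and Lgals3bp, a secreted glycoprotein gene, had 155 and 7. Opposite to these, the pro-apoptotic gene Xaf1 was at 13.4 CPM and 26.6 CPM, just inside 2-fold at a log2 ratio of 0.93, and past it at 1.08 with TMM scaling. Sp100, a nuclear body component, had 12 and 117 UMIs, a log2 ratio of 1.37 and a level 8.56-fold higher in LBPXRS.

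Other genes of the pathway were counted by the same rule, beside the 11.6% of all genes that were at least 2-fold lower and the 8.53% that were higher. Interferon ligand genes were practically unread: 12 of 13 had no UMI in either library, and Ifnz had 1 UMI in LB. Of the 6 receptor genes, Ifngr1, a chain of the type II receptor, was at least 2-fold lower in LBPXRS (5.23 to 1.64 CPM), while Ifnar2 (9.41 to 35.6 CPM) and Il10rb (1.54 to 4.94 CPM) were at least 2-fold higher. Of 8 measured signal transducers, Irf2 alone was lower, at 178 and 15 UMIs, and none was higher. Jak1 had 11.3 and 15.5 CPM and Tyk2 had 7.69 and 7.52 CPM. In nucleic acid sensing, 0 of 7 were lower and Cgas was higher, and 0 of 4 negative regulators passed 2-fold in either direction.

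Induced and antigen presentation genes are read against the same shares. Of 19 further induced genes that reached a mean CPM of 1, 12 were at least 2-fold lower in LBPXRS and 1, Phf11d, was higher, against 11.6% and 8.53% of all genes, with a median log2 ratio of -1.67. Irgm1, an immunity-related GTPase gene, had 1135 and 5 UMIs, and Parp10 had 623 and 3. Of 9 antigen presentation genes, 8 were lower with a median of -2.21, and B2m alone was within 2-fold at -0.55. Psmb8, an immunoproteasome subunit gene, was counted 6854 times in LB and 1 time in LBPXRS. Over all these lists, 22 of 53 measured genes were lower and 4 higher.

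Markers of other cells that could carry an interferon response were looked at beside these values. Feeder fibroblast markers summed to 18.2 CPM in LB and 4.55 CPM in LBPXRS, with 4 of 8 above 1 CPM in LB, but Lum had 0 UMIs, Dcn 1, Col3a1 2 and Postn 1 in LB. The 4 above 1 CPM were Col1a1 (355 UMIs in LB and 91 in LBPXRS), Thy1 (239 and 142), Twist2 (185 and 2) and Col1a2 (46 and 0), all higher in LB, as was the list. Among blood and immune markers, which summed to 10.3 CPM in LB and 67.0 CPM in LBPXRS, Ptprc had 0 UMIs in both libraries, Tyrobp had 1 in each and Lyz2 had 1 in all. Most of the LBPXRS sum was Laptm5, at 301 UMIs in LB and 3364 in LBPXRS, and Cd74 had 134 and 72. The part of such cells in the differences was not tested. Col1a1 was among the 10 leading genes of the mesoderm-like LB cells described further on, where the list without Ifitm stood at 416 CPM.

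Per cell, the 40 genes together took a median of 0.2% of a cell's thinned UMIs in LB (interquartile range 0.14 to 0.3) and 0.2% in LBPXRS (0.14 to 0.28). The LB cells had a longer upper tail, with a 95th percentile of 0.54% against 0.4%, and a variance-to-mean ratio of the summed UMIs of 5.07 against 2.49. Without the Ifitm genes, the mean share was 0.0656% in LB and 0.0182% in LBPXRS. The highest cell reached 0.54% in LB and 0.12% in LBPXRS, and 14.9% of LB cells and 42.8% of LBPXRS cells had none of these UMIs. The variance-to-mean ratio was then 3.90 in LB and 1.14 in LBPXRS, where pure sampling from cells of 1 kind would give about 1. Of the LB cells, 31.0% lay above the 95th percentile of LBPXRS. LB cells held a median of 2 of the 37 genes at this depth (up to 13) and LBPXRS cells 1 (up to 5).

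**Figure D2:**
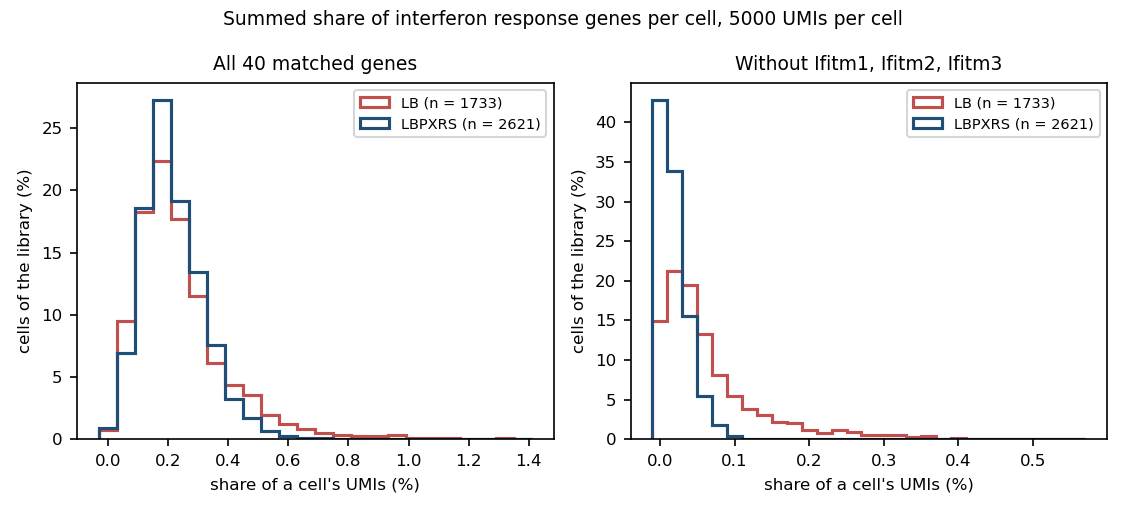
Summed share of interferon response genes in each cell after thinning to 5000 UMIs, as the percent of cells of each library, for all 40 matched genes (left) and without Ifitm1, Ifitm2 and Ifitm3 (right). The left distributions lie over each other at a median of 0.2%, and the right ones separate, with an LB tail out to 0.54%.

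T was more frequent in the LB cells with the highest shares than in the others. T encodes Brachyury, a factor of the primitive streak, Hand1 marks extraembryonic mesoderm and trophoblast, and Tfap2a marks trophoblast and surface ectoderm. High cells were the highest 10% of LB cells by summed share, 173 cells against 1560 others. Ranked by all 40 genes, 56.1% of high cells had a T UMI (48.3 to 63.6) against 13.7% of the others. That share moved with the setting, to 30.9% against 10.4% at 2000 UMIs and 39.5% against 10.7% for the highest 25% of cells. Hand1 was found in 19.7% (14.0 to 26.4) against 13.3%, and Tfap2a in 0.578% against 2.05%, in both cases with overlapping intervals at this setting. The Hand1 difference was larger without marked doublets, at 22.7% of 172 high cells against 13.8%. Ranked without the Ifitm genes, 75.7% of high cells had T (68.6 to 81.9) against 11.5%, Hand1 was found in 17.3% (12.0 to 23.8) against 13.5%, and Tfap2a in 1.73% (0.359 to 4.98) against 1.92%. Any of the 3 was present in 82.1% of those high cells and 24.7% of the others, and the naive factor gene Klf4 in 4.05% and 16.7%. Cdx2, of the trophoblast marker list, was more frequent in those high cells, unlike Tfap2a: 25.4% (19.1 to 32.6) against 8.72% (7.36 to 10.2). Both rankings shared 90 of 173 cells, 52.0% of each.

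Naive-like LB cells, which should lack T, gave a background: 9 of 598 of them (1.51%, 0.690 to 2.84) had a T UMI at a median depth of 27922 UMIs before thinning. Hand1 was found in 3 of them (0.502%) and Tfap2a in 9 (1.51%), the latter near the 1.92% of other LB cells, which are a mixed set. In the trophoblast-like LB cells described further on, a class with Tfap2a among its markers, Tfap2a was found in 14 of 58 (24.1%, 13.9 to 37.2). The 33 Tfap2a-positive LB cells thus come from several classes and are not read as 1 cell state. The high cells ranked without Ifitm had a median depth of 22612 UMIs and the others 26004. Without thinning, and ranked by all 40 genes, T was found in 71.3% of 178 high cells and 25.1% of the others, Hand1 in 34.3% and 21.7%, and Tfap2a in 4.49% and 5.42%. In LBPXRS, 1 of 2621 thinned cells had a T UMI, none had Hand1 and 0.458% had Tfap2a, so the same question could not be asked there.

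Sorting the LB cells by marker first gave the reverse view. Marker state was read in thinned cells, and levels from all UMIs of those cells. Before thinning, the cells with none of the 3 markers still held 500 T UMIs (15.6 CPM) and 261 Hand1 UMIs (8.16 CPM), so this set is not free of marker RNA. The 310 T-positive cells held the list without Ifitm at 1474 CPM (1447 to 1502), the 1205 cells with none of the 3 markers at 456 CPM (449 to 463), the 241 Hand1-positive cells at 588 CPM (569 to 607) and the 33 Tfap2a-positive cells at 689 CPM (638 to 743). High cells made up 42.3% of T-positive cells (36.7 to 48.0) and 2.57% of cells with none. A split chosen after these values were seen separated the overlaps. Hand1 without T or Tfap2a went with 435 CPM (417 to 454; 189 cells), an interval that overlaps that of cells with none, and 5.29% of these cells were high ones against 2.57%. T together with Hand1 went with 1314 CPM (1248 to 1383; 46 cells). The level was higher with more T UMIs, from 1021 CPM at 1 UMI (113 cells) to 1551 at 2 (62 cells) and 1808 at 3 or more (135 cells), with 22.1%, 43.5% and 58.5% of these cells among the high ones.

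**Figure D3:**
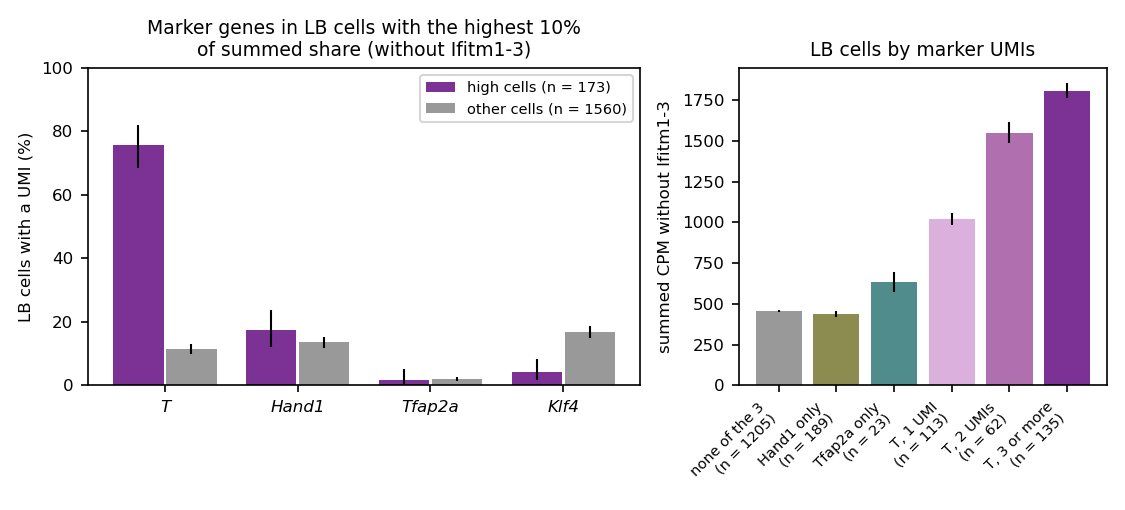
Left, percent of LB cells with a UMI of each marker after thinning, for the 173 high cells by the list without Ifitm genes (purple) and the other 1560 (grey). Right, summed CPM of the list without Ifitm genes in LB cells sorted by marker UMIs; bars start at 0 and error bars are exact 95% intervals for counting error. Of the 4 markers T differs most between the sets, and the level climbs from 1021 to 1808 CPM with T UMIs.

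Single members differed in how far they followed T. Isg15 had 251 CPM in T-positive cells (240 to 263), 83.5 CPM in Hand1-positive, 67.1 CPM in Tfap2a-positive and 20.6 CPM in cells with none (19.1 to 22.2). Rtp4 followed the same order, at 63.3, 17.2, 11.4 and 4.50 CPM. For both genes the intervals of Hand1-positive and Tfap2a-positive cells overlap, so that step is not resolved, and 46 of the Hand1-positive cells also had T. Cxcl10 did not follow this order: it was lowest in cells with none (2.47 CPM) and in T-positive cells (2.95 CPM) and highest in Tfap2a-positive ones (24.8 CPM, 15.9 to 36.9). Ddx58 was low in Hand1-positive cells (2.36 CPM, 1.32 to 3.90) and at 11.8 to 16.5 CPM in the other 3 sets. Ifitm3 had 807 CPM in T-positive cells (787 to 828) and 404 CPM in cells with none (397 to 411), while Ifitm1 had 602 and 611 CPM with overlapping intervals.

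Outside the list, the 10 genes most raised in the high cells (ranked without Ifitm, at a CPM of at least 50) were Sprr2a3, T, Pdgfrl, Defa30, Alox15, Nmb, Psmb8, St3gal6, Fst and Car3. T itself had 561 CPM in high cells and 55.4 CPM in the others, and Psmb8 had 654 and 100.5 CPM. The 10 most lowered were Fam25c, Morc1, Jam2, Hsd17b14, Gm32885, Dpys, Zfp42, Gpx2, 1700097N02Rik and Spp1, of which Zfp42, which encodes the pluripotency factor REX1, had 35.1 CPM in high cells and 438 CPM in the others.

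LB cells were then clustered with the 40 genes left out of the genes clustered on. Of 8 clusters, 5 were named from markers: naive pluripotent-like (602 cells), mesoderm-like (355), formative or primed-like (266), primitive streak-like (263) and trophoblast-like (60). The leading genes of the streak-like cluster were Sprr2a3, T, Isg15, Ptgs1, Rtp4, Ifi27l2a, Igfbp3, Trim67, Pdgfrl and Sp8, so 3 interferon response genes were among its 10 most raised. None of the 40 was used to form it. Induced and antigen presentation genes outside the list were not left out, such as Psmb8 (601 CPM in streak-like and 10.5 in naive-like cells), so the clusters are not independent of such genes. The list without Ifitm stood at 1724 CPM in the streak-like, 869 in the trophoblast-like, 724 in the formative-like, 416 in the mesoderm-like and 350 in the naive-like cells. The unnamed clusters were at 319 CPM (158 cells led by Calb2), 577 CPM (61 cells led by Slc7a3) and 648 CPM (18 cells with a median of 5957.5 UMIs). The streak-like cluster held 130 of the 173 high cells ranked without Ifitm, and the naive-like cluster held 0.

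Of the 33 genes that reached a mean CPM of 1, 18 had their highest level in the streak-like cluster, where 9.17% of all 12618 genes did. For 8 of these, Isg15, Rtp4, Ifi27l2a, Zbp1, Bst2, Ifi35, Parp9 and Ifitm3, the exact interval lay above that of every other cluster, where it did for 0.428% of all genes, and for 5 more it overlapped only with the cluster of 18 cells (1.37% of all genes in either class). Isg15 had 318 CPM there, 117 in the cluster of 18 cells, 102 in the trophoblast-like, 44.2 in the mesoderm-like, 41.9 in the formative-like and 1.60 in the naive-like cells. Irf1 had 81.2 CPM in the streak-like and 39.7 in the formative-like cells, Bst2 461 and 307, and Ifi35 145 and 39.7. The trophoblast-like cluster held the highest level of 4 genes: Cxcl10, at 60.4 CPM against at most 3.25 in the other clusters, Gbp2, Gbp3 and Eif2ak2. Only Cxcl10 of the 4 lay apart by its interval, and Gbp2 had 92.3 CPM in trophoblast-like and 91.8 in streak-like cells. The highest values of Ddx58, Ifitm2, Irf9, Samhd1, Stat2 and Xaf1 fell in the 61 cells led by Slc7a3, that of Ifitm1 in the cluster led by Calb2 and that of Trim25 in formative-like cells, each with an interval that overlapped at least 1 other cluster, so these orders are not resolved. Ifitm1 was lowest in formative-like cells at 144 CPM, against 341 to 742 CPM in the other clusters. The highest values of Adar, Sp100 and Usp18 fell in the cluster of 18 cells and rest on at most 3 UMIs each.

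**Figure D4:**
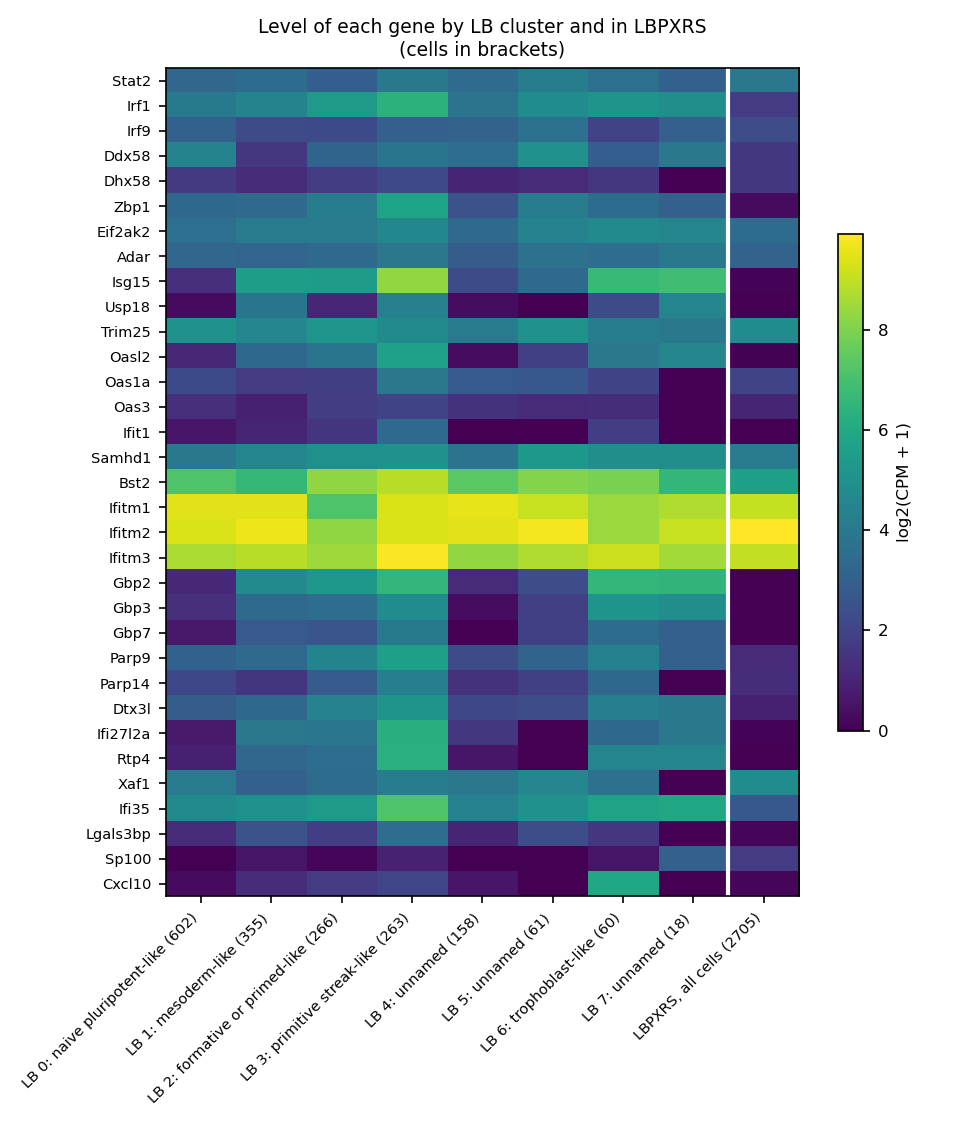
Level of the 33 interferon response genes that reached a mean CPM of 1 in each LB cluster (number of cells in brackets) and in all LBPXRS cells (right of the white line), as log2(CPM + 1). The streak-like column is the brightest for Isg15, Rtp4, Ifi27l2a, Zbp1 and Oasl2, the Ifitm rows are bright in every column, and the LBPXRS column is dark for the guanylate-binding proteins.

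Cell classes were then compared, a choice made after the clusters were seen. The naive-like LB cells lay between streak-like and LBPXRS cells in the sum without Ifitm (350, 1724 and 178 CPM), but not for every member or for the sum of all 40 (2145, 3980 and 2179 CPM). Against naive-like cells, streak-like cells had 22 of the 33 genes at least 2-fold higher, where 15.4% of all genes were, and 0 at least 2-fold lower, with a median log2 ratio of 1.78 against 0.20 over all genes. Isg15 was 199-fold higher, Rtp4 92.8-fold and Gbp2 77.6-fold, beside 132-fold for T. In naive-like cells Isg15 had 1.60 CPM, Rtp4 0.829, Gbp2 1.18 and T 4.20, and how much of these low levels is free RNA was not tested. Bst2 (146 and 461 CPM), Irf1 (14.97 and 81.2), Zbp1 (9.06 and 53.1) and Ifi35 (25.1 and 145) had smaller ratios of 3.16-fold to 5.86-fold. Ddx58 went the other way within 2-fold, at 20.4 CPM in naive-like and 13.4 CPM in streak-like cells. Of the pathway lists, 9 of 9 antigen presentation genes and 12 of 19 further induced genes were at least 2-fold higher in streak-like cells (15.4% of all genes), and 2 of the 19 were lower (8.94%). Of the receptors 3 of 6 were higher, of the signal transducers 2 of 8, of nucleic acid sensing 1 of 7 and of the negative regulators 1 of 4, and Irf2 had 0.296 and 13.9 CPM.

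Against the same naive-like LB cells, LBPXRS cells had 12 of the 33 genes at least 2-fold lower, where 6.49% of all genes were, and 1 higher (10.4%), with a median log2 ratio of -0.62 against 0.05 over all genes. Of these 12, 7 had a naive-like level of at least 6.57 CPM: Zbp1 (9.06 and 0.232 CPM, log2 ratio -3.03), Ddx58 (20.4 and 2.01, -2.83), Irf1 (14.97 and 2.30, -2.28), Dtx3l (6.57 and 0.849, -2.03), Ifi35 (25.1 and 5.38, -2.03), Parp9 (7.34 and 1.27, -1.88) and Bst2 (146 and 49.1, -1.55). The other 5, Isg15, Gbp2, Gbp3, Oasl2 and Lgals3bp, stood at only 1.18 to 1.60 CPM in naive-like cells, levels for which free RNA was not tested. Other genes with a naive-like level in the same range as the 7 were within 2-fold, among them Trim25 (31.8 CPM, log2 ratio -0.25), Samhd1 (14.6, 0.13) and Eif2ak2 (11.4, -0.14), and Xaf1 (16.2, 0.68) was on the higher side. LB was also restricted to its 963 kept cells without a T, Hand1 or Tfap2a UMI before thinning (54.0%), a stricter set than the 1205 cells with none after thinning. With these, 28 members reached a mean CPM of 1 and 13 of them were at least 2-fold lower in LBPXRS, where 8.37% of 12427 genes were. Of the 19 genes lower against all LB cells, Ifit1 and Parp14 were within 2-fold here, at log2 ratios of -0.66 and -0.91. Isg15 had 9.88 CPM in them and Gbp2 7.31 CPM, below the 61.8 and 27.6 CPM of the whole library.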

How the data were processed

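Droplet single-cell libraries (10x Genomics 3′ chemistry, per the labels' protocols) were deposited as UMI counts per gene and cell barcode, which the authors made with Cell Ranger 4.0.0 on build mm10, per the submitters' processing notes. The annotation and the cell calling settings are not given in the sources used here. The counts are raw, and 0 per-sample columns were left unused.

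Barcodes with fewer than 1000 genes or more than 10% mitochondrial UMIs were left out, which removed 11.2% of LB barcodes and 13.1% of LBPXRS barcodes, holding 1.60% and 1.39% of the UMIs. Counts were summed over kept cells and scaled to 1000000 (CPM). With 1 library per condition no test was made, no p-value is given, and a difference was called by size alone, at 2-fold with a pseudocount of 1 CPM where the mean CPM was 1 or more. On simulated counts with counting noise only, over 12618 genes, this rule called 186 of 200 genes changed 4-fold, 178 of 200 changed 3-fold, 0 of 200 changed 1.5-fold and 0 of 12418 unchanged genes. Shares per cell used cells thinned to 5000 UMIs with a fixed seed, which left out 50 LB and 84 LBPXRS cells. UMIs count captured molecules, and intervals (exact Poisson, Clopper-Pearson) and the floor of 3 counts cover counting error only.

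LB cells were clustered with scanpy 1.11.5 and leidenalg 0.10.2 (counts scaled to 10000 per cell, 2000 variable genes, 30 principal components, 15 neighbours, resolution 0.5). A cluster took the name of the marker list with the most markers raised 2-fold at a CPM of at least 5. It stayed unnamed where these were under 3, where lists tied, where that list's median was under 2-fold, where another list had more of the 10 leading genes, or where its depth was far below the library's and none of the list's markers led it. Doublets were marked by Scrublet in 12 cells of LB (0.673%) and 14 of LBPXRS (0.518%). The caller may have missed doublets, and marked cells were kept except in an alternative.

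The members, the pathway and marker lists, the 2-fold rule and the high cells were chosen with earlier results of these data known. Named genes were all members, genes of the lists at a mean CPM of 1 or more, and the 10 highest and 10 lowest log2 ratios of high over other LB cells. Alternatives were TMM factors from edgeR 4.0.16 (scaling only), other filters, pseudocounts, thinning depths, definitions of high cells and cluster settings. Gene positions are from GENCODE for GRCm38 and promoters from RefSeq.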

Additional observations from a re-analysis of the deposited data

How the results depend on the processing

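The direction of the list's median held under each alternative run, but its size moved with the genes and the pseudocount: -2.61 with 0.1 CPM added, -0.72 with 5 CPM, -0.41 over the 13 members with a mean CPM of at least 10, -1.44 over every member with a UMI and -0.80 against LB cells without T, Hand1 or Tfap2a. The log2 ratio of the summed level was 0.059 with TMM factors, 0.063 against those LB cells, 0.051 without members on chromosomes 8 and 11, -1.81 without the Ifitm genes and -0.48 without Ifitm2, the most abundant member of LB. The count of 19 lower members became 5 of 13 at a mean CPM of 10 (8.74% of all genes there), and the single higher member became 2 (with Xaf1) with TMM factors and 0 with 5 CPM added, at a mean CPM of 10 or at 4-fold. All 19 stayed at least 2-fold lower with TMM factors, all barcodes, a stricter barcode filter, 0.1 CPM added and without marked doublets; with 5 CPM added, Cxcl10, Gbp7, Ifit1, Lgals3bp and Parp14 did not. TMM moved the median of all genes from -0.14 to 0.0031.

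The median share per cell was 0.04% in LB and 0.02% in LBPXRS without the Ifitm genes, 0.14% and 0.12% without Ifitm2, and 0.207% in LBPXRS without thinning. T was found in 30.9% of high cells at 2000 UMIs, 71.3% without thinning, 75.7% ranked without Ifitm and 39.5% with the highest 25% of cells. Hand1 was found in 10.1% at 2000 UMIs and 34.3% without thinning, and Tfap2a in 4.49% without thinning and 0% of the highest 5%. In the cluster with the highest median share, the streak-like one, that median was 0.38%, and 0.46% at resolution 1. Of 231 values of named members under alternatives, 167 moved by less than their counting interval, 64 moved by more and 0 reversed among called ones. Causes of these shifts were not tested beyond the alternatives' own construction. No paired analysis was possible because each condition has 1 library. Depth limits Ifit2, Ifit3, Oas2, Rsad2 and Irf7, and with Ifih1 these 6 members stayed under a mean CPM of 1.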

Other observations

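The summed Ifitm genes and the other members had little correlation between cells, but the 3 genes differed. Across 1733 thinned LB cells the summed UMIs of Ifitm1, Ifitm2 and Ifitm3 and those of the other members had a Spearman correlation of 0.043, and across 2621 LBPXRS cells 0.0085; cells of a library share its depth and preparation, and these are descriptions. In the high LB cells ranked without Ifitm, Ifitm3 had 1010.5 CPM against 421 CPM in the others (log2 ratio 1.26), while Ifitm1 had 610 and 597 CPM and Ifitm2 665 and 628 CPM. Within the family, Ifitm1 and Ifitm2 had a correlation of 0.406 in LB and 0.178 in LBPXRS. The other pairs were lower in LB: Ifitm1 and Ifitm3 had 0.186 in LB and 0.132 in LBPXRS, and Ifitm2 and Ifitm3 had 0.160 and 0.168.

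In LBPXRS the highest 10% of cells by summed share of all members (262 cells) differed little from the others. Ifitm1 had 1173 CPM in them and 457 CPM in the others, as their choice by this sum implies. Outside the list, the most raised gene, Dppa3, a maternal and germline factor, had 63.9 and 36.1 CPM (log2 ratio 0.80), and the most lowered, the water and glycerol channel gene Aqp3, had 28.5 and 59.0 CPM (-1.03).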
